A study of Mus musculus with 4 samples.

Results

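Ccr1 and Ccr3 are genes for cell-surface receptors of the chemokine Ccl5. They were taken by their symbols and made up 2 of the 32285 genes counted in single CD45+ cells from mouse liver. Chemokines are small secreted proteins that steer white blood cells. Ccr1 and Ccr3 pass through the membrane many times, couple to inhibitory G proteins, and set off calcium release and directed movement when a ligand binds. Ccr1 is known from neutrophils, monocytes and other myeloid cells, whereas Ccr3 is best known as the eotaxin receptor of eosinophils. Besides Ccl5, the ligands listed here were Ccl3, Ccl6, Ccl7, Ccl8 and Ccl9 for Ccr1 and Ccl7, Ccl8, Ccl11 and Ccl24 for Ccr3. Whether each of them binds the mouse receptor was not tested.

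The study asked how the microRNA miR-146a and the chemokine Ccl5 act on immune cells of the liver in a mouse model of liver cancer. All mice were C57BL/6 females, and each group was 1 library made with the 10x Genomics 5′ chemistry from liver cells sorted for the leukocyte protein CD45. The young WT group was untreated and 8 weeks old. The other 3 groups were 36 weeks old by the labels, had received the liver carcinogen diethylnitrosamine (DEN) at 25 mg/kg by injection into the abdomen at 14 days of age, and were fed a choline-deficient diet with 60% fat (CDHFD) from weaning at 21 days. Of these, the treated WT group had both genes, the miR-146a-/- group lacked miR-146a, and the DKO group (miR-146a-/- Ccl5-/-) lacked Ccl5 as well. Both are germline deletions, so they affect every cell type of the mouse. How many mice gave cells to each library is not stated in the sources used. Age, carcinogen and diet differ together between young and treated WT, and their effects cannot be told apart. With 1 library per group there is no measure of the spread between mice, so no test was made. Every interval below is an exact 95% interval and covers counting error only.

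Transcripts were counted as unique molecular identifiers (UMIs), tags that let each captured RNA molecule be counted 1 time. The deposited libraries held 90756272 UMIs for young WT, 103165826 for treated WT, 88706063 for miR-146a-/- and 103147246 for DKO. Cells with 600 to 6000 detected genes and at most 5% mitochondrial UMIs were kept, which left 10283, 8329, 7824 and 9850 cells in the same order, 36286 of 39121 in all. A UMI of Ptprc, the gene for CD45, was found in 98.4%, 97.9%, 98.1% and 98.2% of them. Levels are given as CPM, the UMIs of a gene for each 1e6 UMIs of all genes in the same cells. Ccl5 stood at 6174 CPM in young WT, 12544 in treated WT, 12496 in miR-146a-/- and 65.4 in DKO. The low value in DKO is the one its genotype calls for, while the matrices have no entry for miR-146a itself and its loss was not checked. Any 2 libraries shared between 96 and 127 cell barcodes, and in none of these pairs of cells did both hold a Ccr1 UMI. With so few shared barcodes and few Ccr1-positive cells such a pair was unlikely in any case, so its absence says little.

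Cells were sorted into 18 classes by gates, which are sets of marker transcripts that a cell must hold and others that it must lack. Of the kept cells, 25040 passed 1 gate, 2258 passed more than 1 and 8988 passed none. Marker genes for checking the gates were above the median of the other classes in their own class for all 36 marker and class pairs tried. They were kept out of the gates, except S100a8 and S100a9, whose sum the neutrophil gate required. For neutrophils, Lcn2 was thus the only separate check. The weakest of the check markers were those of type 1 innate lymphoid cells (ILC1), of which 0 of 3 ranked among the top 3 classes. No such markers were tried for the T-cell classes, on which the Ccr3 results rest, or for eosinophils.

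Both receptors lie on mouse chromosome 9 in the GRCm38 build, the assembly of the deposited counts. Ccr1 (ENSMUSG00000025804) spans chr9:123962124-123968692 on the minus strand and Ccr3 (ENSMUSG00000035448) spans chr9:124021972-124031689 on the plus strand, each with 2 exons in the GENCODE annotation. Their gene models are 53279 bases apart, and Ccr1l1, a gene of the same family, lies between them. The sequences at their starts are shown because the 2 neighbouring genes were read in different cells, as described below. RefSeq promoters (GRCm38.p6) were found for both members, each running from 250 bases before the start to 50 after it, chr9:123968643-123968942 on the minus strand for Ccr1 and chr9:124021721-124022020 on the plus strand for Ccr3. Capitals mark matches to 4 short core motifs, GAGGAA of the PU.1 family, AGATAA of the GATA family, TTGCAA of the C/EBP family and TGAGTCA of the AP-1 family.
Ccr1: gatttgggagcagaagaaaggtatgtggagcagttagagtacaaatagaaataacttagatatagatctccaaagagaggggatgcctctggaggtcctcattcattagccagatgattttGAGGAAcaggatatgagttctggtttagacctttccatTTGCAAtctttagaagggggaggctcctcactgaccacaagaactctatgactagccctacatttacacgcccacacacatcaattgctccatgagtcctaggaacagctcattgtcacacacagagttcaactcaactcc
Ccr3: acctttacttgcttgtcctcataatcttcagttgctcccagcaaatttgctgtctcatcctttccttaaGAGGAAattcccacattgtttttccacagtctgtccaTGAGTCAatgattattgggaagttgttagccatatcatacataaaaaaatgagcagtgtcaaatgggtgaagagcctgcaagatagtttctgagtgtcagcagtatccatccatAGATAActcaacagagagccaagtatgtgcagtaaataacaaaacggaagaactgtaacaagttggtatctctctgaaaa
Each motif was searched on both strands. GAGGAA occurred 1 time in the Ccr1 promoter and 1 time in the Ccr3 promoter, and 28.3% of all 32851 RefSeq mouse promoters of this length hold it. TTGCAA occurred in the Ccr1 promoter and not in that of Ccr3, and 6.23% of promoters hold it. The Ccr3 promoter held AGATAA, as do 11.2% of promoters, and TGAGTCA, as do 5.20%, and the Ccr1 promoter held neither. No matches overlapped. In base composition both promoters were poor in G and C, at 44.0% for Ccr1 and 39.0% for Ccr3 against a median of 52.7%. A match is a description of the letters and says nothing about binding.

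Ccr1 was the more abundant of the pair in UMIs. Over all kept cells it had 407 UMIs in young WT, 594 in treated WT, 589 in miR-146a-/- and 825 in DKO, or 4.85, 7.06, 7.41 and 8.53 CPM. Young WT was thus the lowest library and the 3 treated libraries lay close together. At least 1 Ccr1 UMI was found in 1176 cells, and 613 of these cells (52.1%) held a single UMI. Ccr3 had 73, 85, 59 and 124 UMIs in the same order of libraries, or 0.870, 1.01, 0.742 and 1.28 CPM. Its UMIs were in 211 cells, 141 of them with a single UMI, and only 13 cells held UMIs of both receptors. Ccr1l1 had 12 UMIs in all.

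Among classes with at least 20 cells in a library, the Ccr1 level was highest in neutrophils, with classical monocytes and type 2 conventional dendritic cells (cDC2) next. Basophils, with 4 cells in all, held 4 Ccr1 UMIs in 2 of them and were not placed. Neutrophils held 43 UMIs in 18 cells of young WT, 16 in 13 cells of treated WT, 89 in 33 cells of miR-146a-/- and 47 in 22 cells of DKO. For the pair with at least 20 cells, this was 225 CPM (181 to 277) in miR-146a-/- and 227 CPM (167 to 302) in DKO. A Ccr1 UMI was found in 63 of the 86 neutrophils (73.3%). In classical monocytes, the blood monocytes that enter inflamed tissue, Ccr1 stood at 19.2 CPM (9.94 to 33.6) in treated WT, 43.0 (32.4 to 56.0) in miR-146a-/- and 67.3 (54.0 to 82.8) in DKO, and young WT had 12 UMIs in 13 cells. In cDC2, antigen-presenting cells that prime CD4 T cells, it stood at 58.9 CPM (43.4 to 78.1) in young WT, 39.1 (27.7 to 53.6) in treated WT, 16.1 (9.18 to 26.1) in miR-146a-/- and 29.2 (22.4 to 37.4) in DKO. The neutrophil level was above both others, with intervals apart, in miR-146a-/- and DKO. Classical monocytes were above cDC2 in those same libraries, with intervals apart, and below cDC2 in treated WT, where the intervals overlapped.

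**Figure D1:**
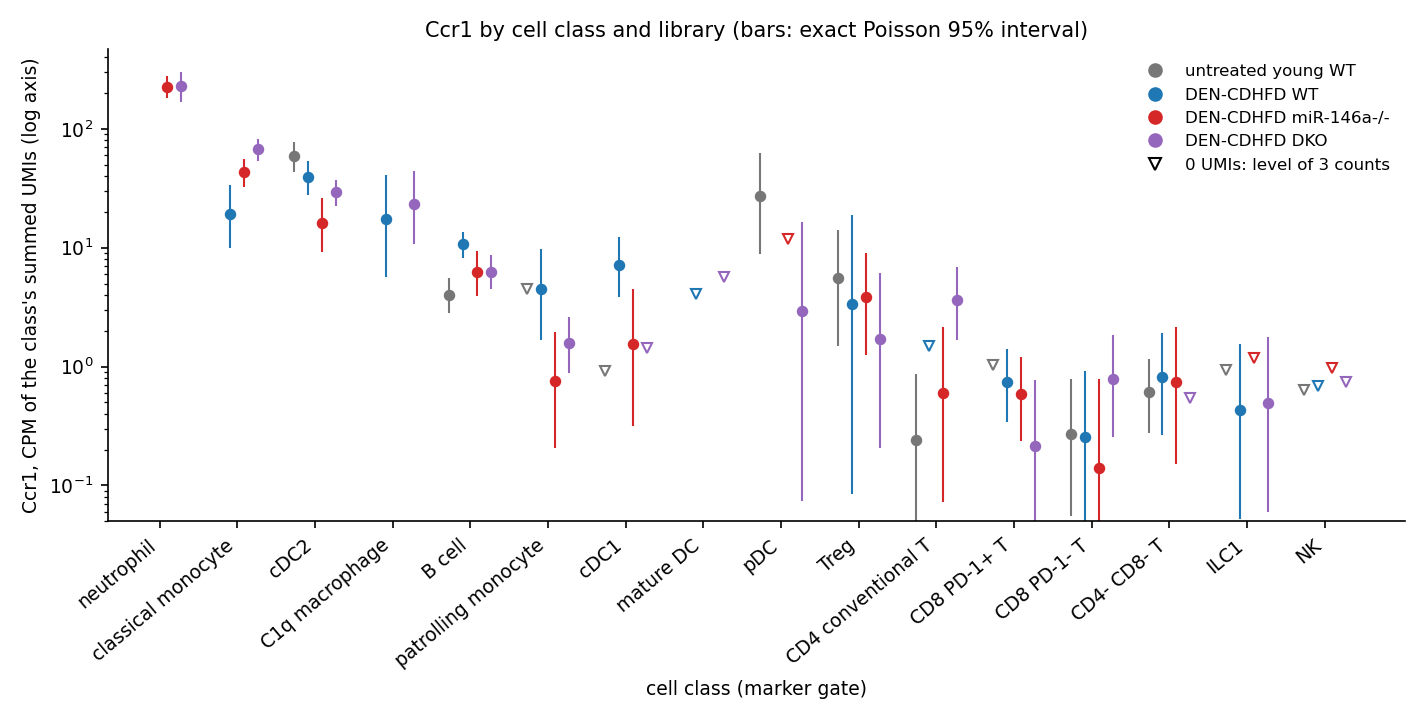
Ccr1 level in CPM (log axis) for each cell class with at least 20 cells in a library, coloured by library, with exact Poisson 95% intervals as bars and open triangles at the level that 3 counts would give where no UMI was found. Neutrophils lie at 225 and 227 CPM in the libraries shown, classical monocytes and cDC2 between 16.1 and 67.3 CPM, and NK cells have no UMI in any library.

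C1q macrophages, the class with complement C1q transcripts, came next with 17.5 CPM (5.69 to 40.9) in treated WT and 23.4 (10.7 to 44.4) in DKO, within counting error of cDC2. By the mean of the 4 libraries, plasmacytoid dendritic cells (pDC) followed, with 6 Ccr1 UMIs in all, of which 5 were in 1 of the 20 cells of young WT. B cells stood at 4.03, 10.7, 6.23 and 6.29 CPM in young WT, treated WT, miR-146a-/- and DKO. Patrolling monocytes, the long-lived monocytes of the vessel wall, had 0, 6, 4 and 15 Ccr1 UMIs in 80, 136, 641 and 1263 cells, a pooled level of 1.5 CPM (0.970 to 2.21). The 2 monocyte classes thus differed in this gene as gated, with cells of both monocyte gates left out. With cells of several gates kept in the first gate they passed, patrolling monocytes stood at 8.69 CPM. Type 1 conventional dendritic cells (cDC1) held 0, 13, 3 and 0 UMIs, the 13 of treated WT in 5 cells. Each T-cell class stood below 6 CPM in each library. At the lower end, NK cells had 0 Ccr1 UMIs in 1830 cells, which allows up to 0.227 CPM, and ILC1 had 4 in 2029 cells. The neighbours cDC1, regulatory T cells (Tregs), mature dendritic cells and patrolling monocytes had overlapping intervals when the libraries were pooled, at 1.21 to 3.44 CPM.

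A deep cell is more likely to show a UMI of any gene. To compare shares at equal depth, cells were also thinned at random to 2000 UMIs each, which takes away UMIs of the cell and of stray RNA, caught in the droplet from other cells, alike. After thinning, a Ccr1 UMI was found in 44.3% of neutrophils (33.1% to 55.9%), 7.92% of classical monocytes (4.83% to 12.1%), 7.02% of cDC2 (4.40% to 10.5%) and 0.599% of B cells (0.356% to 0.946%). Before thinning the shares were 73.3%, 26.9%, 25.3% and 3.06%, so the order of the pooled classes was kept while every share became smaller. In treated WT cDC2 were above classical monocytes, at 28.6% and 13.8% before thinning and 6.35% and 1.75% after it. Thinning the pooled cells to 1000 UMIs gave 4.36% of classical monocytes, 3.33% of cDC2 and 0.294% of B cells. In NK cells, looked at as cells without Ccr1 after B cells were seen to hold it, the share was 0% of 1818 thinned cells, which allows up to 0.203% as the upper end of the interval. Median depths were 7970.5 UMIs in NK cells, 6162 in B cells, 12112 in classical monocytes, 16064 in cDC2 and 4825.5 in neutrophils. NK cells were no shallower than B cells, but as they were chosen with their values known, stray RNA as a source of the Ccr1 UMIs in B cells was not tested.

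Neutrophils were also divided by stage, from transcripts of early granule proteins (precursor), later granule proteins (granule) and mature cells (mature). Mature neutrophils held 43 Ccr1 UMIs in 18 cells, 16 in 13, 24 in 8 and 30 in 12 in the 4 libraries, or 567 CPM (467 to 682) pooled. Granule-stage neutrophils were found in miR-146a-/- (24 cells, 65 Ccr1 UMIs) and DKO (10 cells, 17 UMIs) alone, at 172 CPM (137 to 213) pooled. On the CPM scale, Ccr1 was thus higher in the mature stage than in the granule stage. Per cell the pooled stages were alike, with 2.22 UMIs in mature and 2.41 in granule-stage cells. Within libraries the mature stage was above the granule stage, at 3 against 2.71 in miR-146a-/- and 2.5 against 1.7 in DKO. Granule-stage cells had about 12552 UMIs at the median in miR-146a-/- and 12053 in DKO. The level of the whole class in a library therefore moves with the mix of stages.

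Most Ccr1 UMIs were not in cells of a single gate. Cells that passed more than 1 gate held 13.5% of the Ccr1 UMIs in young WT, 22.6% in treated WT, 34.5% in miR-146a-/- and 45.5% in DKO. Cells with no gate held 45.7%, 48.0%, 30.1% and 20.5% in the same order. The share of several gates thus rose along the 4 libraries, while that of ungated cells was lower in miR-146a-/- and DKO than in both WT libraries. Cells of several gates themselves rose from 2.40% of kept cells in young WT to 4.75%, 7.77% and 10.2%, and their Ccr1 level had no such order, at 14.8, 21.3, 18.1 and 20.7 CPM. In the 3 treated libraries the largest group of the latter passed both monocyte gates. This group had 4 Ccr1 UMIs in 33 cells of young WT, 28 in 144 of treated WT, 41 in 236 of miR-146a-/- and 119 in 412 of DKO. Among ungated cells, those with at least 2 T-cell and 2 myeloid UMIs (a division chosen after the values were seen) held 121, 232, 132 and 114 Ccr1 UMIs, or 29.7%, 39.1%, 22.4% and 13.8%. Such cells may be doublets or cells with stray RNA, and which they are was not tested.

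**Figure D2:**
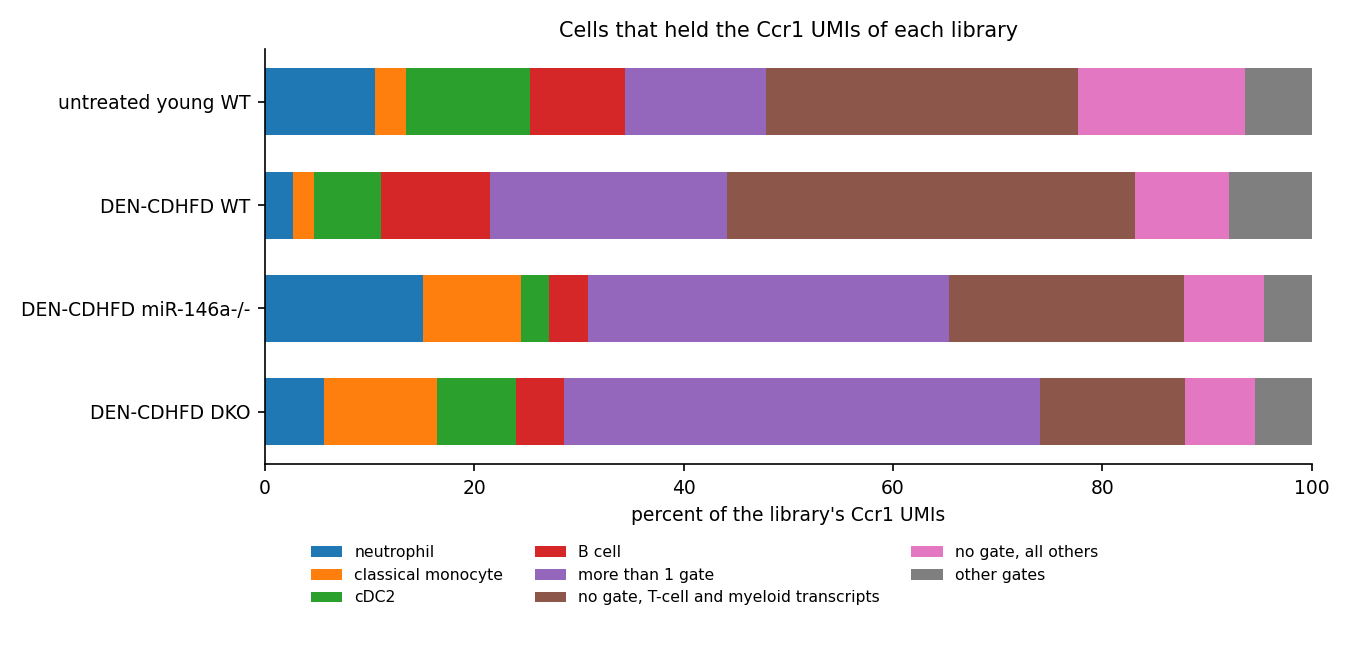
Percent of each library's Ccr1 UMIs (horizontal axis) by the cells that held them, with 1 stacked bar per library. The share of cells passing more than 1 gate goes from 13.5% in young WT to 45.5% in DKO. That of ungated cells with T-cell and myeloid transcripts is 29.7% in young WT, 39.1% in treated WT, 22.4% in miR-146a-/- and 13.8% in DKO.

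Of the gates, neutrophils held 8.07% of the pooled Ccr1 UMIs, classical monocytes 6.96%, cDC2 6.79% and B cells 6.58%. These similar pooled shares came from unlike numbers of cells, 86 neutrophils against 3067 B cells. In single libraries the shares were not similar. The largest gate was cDC2 in young WT (11.8%), B cells in treated WT (10.4%), neutrophils in miR-146a-/- (15.1%) and classical monocytes in DKO (10.8%). Placing each cell of several gates in the first gate it passed gave neutrophils 18.3% of the pooled UMIs at 111 CPM. Allowing any number of Cd3 UMIs in the gates that shut out T cells gave classical monocytes 12.6% and ungated cells 9.48%. Per 1000 kept cells, Ccr1 UMIs numbered 39.6 in young WT, 71.3 in treated WT, 75.3 in miR-146a-/- and 83.8 in DKO. With the classes of each library weighted to the pooled composition, the numbers were 72.0, 71.5, 61.6 and 64.7. That weighting used the division of ungated cells chosen after the values were seen. With all ungated cells as 1 category, also added after the data were seen, they were 57.5, 74.1, 65.6 and 66.8. Young WT was the lowest library in the latter and not in the former, so how much of the gap between young and treated libraries goes with composition depends on how ungated cells are divided.

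For Ccr1, log2 ratios of CPM were taken between libraries with 0.5 counts added to each sum. The comparison of treated with young WT asks what age, carcinogen and diet together go with. Over all kept cells the Ccr1 ratio was 0.54 (0.36 to 0.73), the treated library being higher. Of the 15715 genes with at least 20 UMIs in either library, 20.4% differed by at least 1.5-fold in either direction, and Ccr1 did not reach that fold. With a mean over cells its ratio was 0.73, and with each positive cell counted 1 time, a setting added after the data were seen, 0.96, both past the fold. In B cells Ccr1 was higher in treated WT by 1.40 (0.80 to 2.03), where 6.48% of 10773 genes were higher by at least 1.5-fold. The cDC2 ratio was -0.59 (-1.24 to 0.05), a fold past 1.5 downward as for 8.06% of 6294 genes, with an interval that included 0. It was under that fold in most alternatives tried, for example -0.47 with a mean over cells. After thinning, Ccr1-positive cDC2 were 3.77% in young WT and 6.35% in treated WT, from 2 and 4 cells in 1 random draw, the other direction, while the mean over all draws, added after the data were seen, was 8.81% and 6.72%. So Ccr1 was higher in treated WT in B cells, and in cDC2 it was lower by UMIs with an interval that does not settle the direction.

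The comparison of miR-146a-/- with treated WT asks what loss of the microRNA goes with in treated mice. It shares a library with each of the other comparisons. Over all kept cells the Ccr1 ratio was 0.07 (-0.10 to 0.24), with 18% of 15749 genes past 1.5-fold in either direction. With a mean over cells in place of summed UMIs the ratio was -0.24, and with each positive cell counted 1 time it was -0.10. No difference over all cells was thus detectable. Within classes the Ccr1 ratios had opposite signs. In cDC2 it was lower in miR-146a-/- by -1.26 (-2.22 to -0.41), where 8.65% of 6529 genes were lower by at least 1.5-fold. With no Cd3 limit the cDC2 ratio was -0.42, under that fold. After thinning, Ccr1-positive cDC2 were 6.35% in treated WT and 6.90% in miR-146a-/-, from 4 cells each, so that draw did not show the difference. The mean over all such draws was 6.72% and 2.41%. In classical monocytes it was higher by 1.12 (0.24 to 2.20), where 17.1% of 6769 genes were higher by that fold, so such a rise was not rare there. With no Cd3 limit the monocyte ratio was 0.54, and with each positive cell counted 1 time 0.55, both under the fold. In B cells it was lower by -0.75 (-1.55 to -0.05), as were 10.4% of 10229 genes by 1.5-fold. The B-cell ratio was under the fold with 0 Cd3 UMIs (-0.43), with no Cd3 limit (-0.49), without an upper feature limit (-0.45) and with each positive cell counted 1 time (-0.52). Shares of Ccr1-positive cells in treated WT and miR-146a-/- were 28.6% (17.9% to 41.3%) and 13.6% (6.04% to 25.0%) in cDC2, and 13.8% (6.53% to 24.7%) and 27.7% (19.3% to 37.5%) in classical monocytes. In B cells they were 5.23% (3.69% to 7.17%) and 3.50% (1.97% to 5.71%). These intervals overlapped in each of the 3 classes, while the shares differed in the same direction as the UMIs. With each positive cell counted 1 time the cDC2 ratio was -1.16, close to that of the UMIs, whereas those of monocytes and B cells were smaller as given above.

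The comparison of DKO with miR-146a-/- asks what loss of Ccl5 goes with on the miR-146a-/- background. Over all kept cells the Ccr1 ratio was 0.20 (0.05 to 0.36), under 1.5-fold, and 10.2% of 15728 genes were past it in either direction. In cDC2 Ccr1 was higher in DKO by 0.83 (0.05 to 1.75), where 6.27% of 8052 genes were higher by at least 1.5-fold. With no Cd3 limit it was 0.25, with cells of several gates kept in the first 0.57 and with a prior of 5 counts 0.58, all under the fold. Classical monocytes gave 0.64 (0.14 to 1.16), where 6.9% of 7090 genes were higher by that fold, and 0.48 with no Cd3 limit. With each positive cell counted 1 time, also added later, the monocyte ratio was 0.14, since 28 of 101 monocytes were positive in miR-146a-/- and 32 of 96 in DKO. Ccr1 in B cells did not differ detectably, at 0.00 (-0.78 to 0.84), with 12.6% of 9995 genes past 1.5-fold in either direction. Neutrophils gave 0.02 (-0.53 to 0.54), which mixes stages. The granule stage had 2.71 Ccr1 UMIs per cell in miR-146a-/- and 1.7 in DKO, from 24 and 10 cells, and the mature stage had 24 UMIs in 8 cells and 30 in 12. The cDC2 level in DKO thus lay between those of miR-146a-/- and treated WT, while Ccr1 in classical monocytes was highest in DKO among the 3 treated libraries. Young WT, with 12 UMIs in 13 of these cells, had 0.923 UMIs per cell against 0.927 in DKO.

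**Figure D3:**
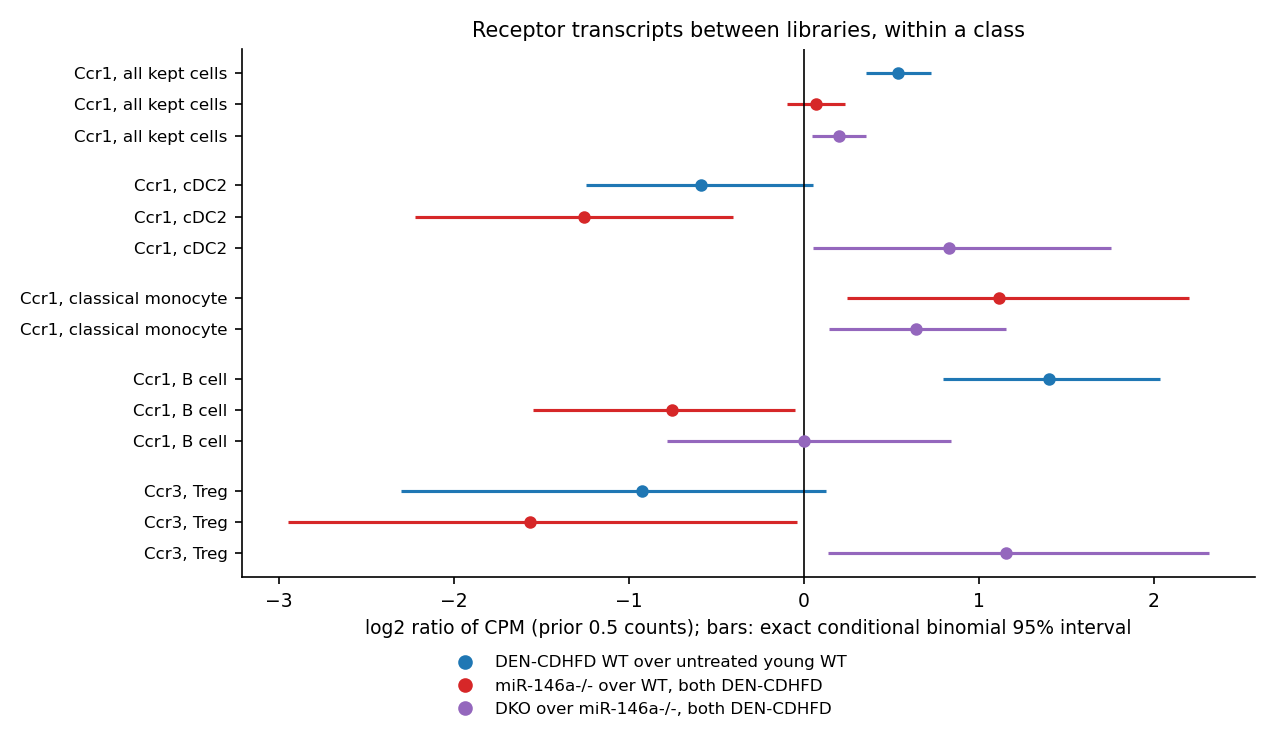
Log2 ratio of CPM (horizontal axis) for Ccr1 and Ccr3 within a class, coloured by comparison, with exact conditional binomial 95% intervals as bars and a vertical line at 0. For miR-146a-/- over treated WT, Ccr1 lies at -1.26 in cDC2 and 1.12 in classical monocytes.

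Some monocytes carried neutrophil transcripts, which matters for a gene so high in neutrophils. At least 5 UMIs of the neutrophil genes S100a8 and S100a9 were found in 0 of 65 classical monocytes of treated WT, 13 of 101 of miR-146a-/- and 14 of 96 of DKO, and these cells held 14 and 16 Ccr1 UMIs in the last pair. Without them, a step chosen after the data were seen, Ccr1 stood at 19.2, 38.3 and 64.7 CPM and the miR-146a-/- over treated WT ratio was 0.95. The direction was unchanged.

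B cells with a Ccr1 UMI were looked at further after their level was seen. There were 18 in young WT, 36 in treated WT, 15 in miR-146a-/- and 25 in DKO, or 1.42%, 5.23%, 3.50% and 3.67% of B cells. Treated WT was the highest library and young WT the lowest. In miR-146a-/- 3 B cells with at least 5 S100a8 and S100a9 UMIs held 4 of the Ccr1 UMIs, and without them the level was 5.18 CPM and the ratio to treated WT -1.02. The genes compared next were chosen after the data were seen. Leaving out such cells, Ccr1-positive B cells had more Zbtb32 (log2 ratio 2.68), Fcrl5 (2.13), Bhlhe41 (2.06) and Sox5 (1.91) than the other B cells, pooled over libraries. From young WT to DKO, the ratios in these Ccr1-positive cells were 4.60, 2.67, 2.11 and 1.16 for Zbtb32 and 2.86, 2.64, 0.86 and 0.61 for Bhlhe41. They were 3.23, 1.05, 2.06 and 2.22 for Fcrl5 and 2.97, 0.86, 2.27 and 1.93 for Sox5, so the sign was shared and the size was not. Some rest on few UMIs. In the positive cells Bhlhe41 had 6 UMIs in miR-146a-/- and 5 in DKO, and Zbtb32 had 8 in DKO. No intervals were computed for these ratios, so the smallest do not settle a direction. Ighd, the IgD heavy chain, was lower (-0.85), as was Fcer2a (-0.92 pooled, and -2.25, -0.53, -1.16 and -0.21 by library), and Jchain of antibody-secreting cells was nearly absent from them (-8.35). Positive B cells were also deeper, with medians of 10964, 10542.5, 12807 and 11512 UMIs against 5576.5, 6544, 6760 and 6324, and the part of depth in these differences was not tested.

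Ccr3 had another distribution and was found mainly in T cells. The eosinophil gate held 2 cells, and 1 of them, in treated WT, had 3 Ccr3 UMIs. The basophil gate held 4 cells with no Ccr3 UMI. Eosinophils, the cells best known for Ccr3, were thus hardly present in these libraries as gated. Tregs, CD4 T cells with the transcription factor Foxp3 that restrain immune responses, held 39 Ccr3 UMIs in 65 cells of young WT, 8 in 28 of treated WT, 12 in 140 of miR-146a-/- and 25 in 139 of DKO. This was 53.8 CPM (38.2 to 73.5), 27.0 (11.7 to 53.2), 9.32 (4.81 to 16.3) and 21.2 (13.7 to 31.3). Young WT was the highest library and miR-146a-/- the lowest. A Ccr3 UMI was found in 29.2%, 17.9%, 4.29% and 8.63% of Tregs.

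Tregs were 1.03% of kept cells and held 24.6% of all 341 Ccr3 UMIs. In each library their level was above that of every other gate with at least 20 cells, and among gates with a Ccr3 UMI the intervals overlapped for C1q macrophages in DKO alone, with 3 UMIs at 7.79 CPM (1.61 to 22.8). CD8 T cells with a UMI of Pdcd1, the gene for the inhibitory receptor PD-1, held 6, 24, 8 and 7 Ccr3 UMIs, or 2.06 (0.758 to 4.49), 1.99 (1.28 to 2.97), 0.669 (0.289 to 1.32) and 0.749 CPM (0.301 to 1.54). CD8 T cells without one held 2, 14, 15 and 14, or 0.179 (0.0217 to 0.647), 1.79 (0.979 to 3.0), 2.12 (1.19 to 3.50) and 2.22 CPM (1.21 to 3.72). The intervals of PD-1+ cells overlapped in each pair of libraries, and in PD-1- cells young WT was below the 3 treated libraries. All these values rest on few cells, and a difference between the CD8 classes was not tested. Conventional CD4 T cells had 10 Ccr3 UMIs in 2005 cells and T cells without Cd4 or Cd8 transcripts had 12 in 4007. Patrolling monocytes had 9 in 2120 cells and C1q macrophages 3 in 110. No Ccr3 UMI was found in 3067 B cells, 1830 NK cells, 2029 ILC1, 86 neutrophils, 275 classical monocytes or any dendritic cell class. Taken as cells without Ccr3, B cells allow up to 0.150 CPM at a median depth of 6162 UMIs, and Tregs had a median of 7437.

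**Figure D4:**
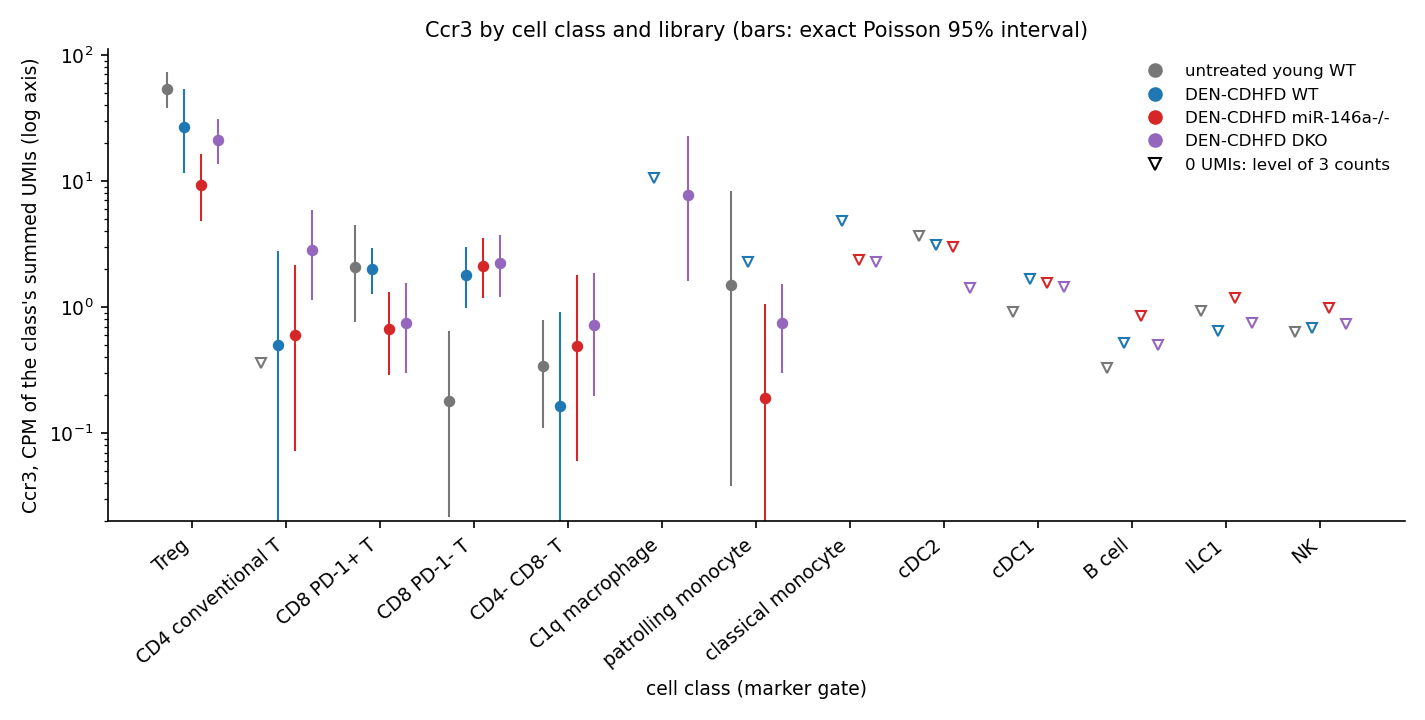
Ccr3 level in CPM (log axis) for cell classes with at least 20 cells in a library, coloured by library, with exact Poisson 95% intervals as bars and open triangles at the level of 3 counts where no UMI was found. Tregs lie between 9.32 and 53.8 CPM, above every other class with a UMI in each library.

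Ungated cells held 105 Ccr3 UMIs and cells of several gates held 25. Allowing any number of Cd3 UMIs turned these into 47 and 63. Of the 25, 17 were in 1 cell of DKO that also held 108 C1qa, 142 Lyz2 and 44 Cd207 UMIs and no Foxp3. This was the cell with the most Ccr3 UMIs, singled out after its values were seen. Over all libraries, cells with a Foxp3 UMI, gated or not, were 3.36% of cells and held 158 of the 341 Ccr3 UMIs (46.3%). That share was 79.5% in young WT, 22.4% in treated WT, 45.8% in miR-146a-/- and 43.5% in DKO. In treated WT 74.1% of Ccr3 UMIs were in cells with a Cd8a UMI, which were 40.8% of its cells. The other libraries had no such excess. Cells with a Cd8a UMI held 20.5% of Ccr3 UMIs and were 20.4% of cells in young WT. The same values were 39.0% and 39.5% in miR-146a-/- and 22.6% and 29.6% in DKO. A cell can count for several such transcripts, and the gates gave smaller shares of Ccr3, 53.4% in Tregs of young WT and 38 of 85 UMIs in the CD8 classes of treated WT.

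Between libraries, the Treg ratio for Ccr3 was -0.92 (-2.30 to 0.13) for treated over young WT, past 1.5-fold downward as were 14.3% of 5448 genes, and -0.47 with a prior of 5 counts. For miR-146a-/- over treated WT it was -1.56 (-2.95 to -0.04), from 12 and 8 UMIs, too few for a count over all genes under the minimum of 20. For DKO over miR-146a-/- it was 1.15 (0.14 to 2.31), where 3.81% of 7691 genes were higher by at least 1.5-fold. With a mean over cells the last ratio was 0.47 and the middle one -0.97. Ccr3 in Tregs thus had its lowest level in miR-146a-/- under both ways of summing. After thinning, the shares of positive Tregs were 10.8%, 7.14%, 2.86% and 2.17% from young WT to DKO, but the last pair rests on 4 of 140 and 3 of 138 cells of 1 random draw. The mean over all draws, added after the data were seen, was 11.2%, 5.15%, 2.43% and 3.30%. Over all kept cells the ratios were 0.21 (-0.25 to 0.69), -0.44 (-0.95 to 0.05) and 0.78 (0.33 to 1.26) in the same order, and for the last 5.16% of 15728 genes were higher by at least 1.5-fold. A mean over cells gave 0.79 for the first of these, and leaving out the DKO cell with 17 UMIs gave 0.57 for the last, under 1.5-fold.

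In PD-1+ CD8 T cells Ccr3 was lower in miR-146a-/- than in treated WT by -1.52 (-2.94 to -0.37), where 8.57% of 11394 genes were lower by at least 1.5-fold. The 24 UMIs of treated WT were in 13 cells, 6 of them in 1 cell. With each positive cell counted 1 time, added after the data were seen, the PD-1+ ratio was -0.84. After thinning, 5 of 1389 and 5 of 1525 of these cells were positive for Ccr3, and the mean over all draws was 0.306% and 0.144%. PD-1- CD8 T cells gave 3.05 (1.20 to 6.50) for treated over young WT, from 14 UMIs in 6 cells and 2 UMIs in 1 cell, too few for a count over all genes. UMIs that share a cell are not independent molecules in this sense, so these intervals are too narrow for genes found in so few cells.

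Genes leading in Ccr3-positive cells were ranked by their fold over all other kept cells. Il1rl1, the receptor for the alarm cytokine IL-33, was 29.0-fold higher and was seen in 44 of these cells, and Foxp3 was 15.9-fold higher and was seen in 85. Marco (35.3-fold), Cstdc4 (23.7-fold) and Stfa2l1 (12.6-fold) came from 1 cell each. Nckap5 (6 cells), the T-cell receptor segments Trav7-1 (4 cells) and Trav6-2 (7 cells), Frmd5 (22 cells) and Cd207 (2 cells) made up the 10. So only Foxp3, Il1rl1 and Frmd5 were seen in more than 7 of the 211 cells. The same ranking for Ccr1-positive cells, added after the data were seen, gave Cstdc5, Stfa1, Cstdc4, Prok2, Retnlg, Gpr27, Stfa2l1, Cxcr2, Il1f9 and Olfm4. The top of that list rests on few of the 1176 Ccr1-positive cells, with Cstdc5 in 6 and Stfa1 in 3, and Olfm4 was in 11. Of the 10, Retnlg, a product of mature neutrophils, was 84.9-fold higher and seen in 171 cells, and the neutrophil chemokine receptor Cxcr2 was 62.8-fold higher and seen in 175.

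Tregs were then divided by Il1rl1, a choice made after seeing that gene in the ranking. Tregs with an Il1rl1 UMI held 31 Ccr3 UMIs in 26 cells of young WT, 6 in 9 of treated WT, 7 in 29 of miR-146a-/- and 12 in 24 of DKO. Those without held 8 in 39 cells, 2 in 19, 5 in 111 and 13 in 115. Pooled, this was 59.2 CPM (44.7 to 76.9) against 11.0 CPM (7.32 to 15.9). Since Il1rl1 was picked from cells with Ccr3 in the same data, this difference restates the ranking and is no separate evidence for it. The intervals of Tregs with and without Il1rl1 were apart in young WT and DKO and overlapped in miR-146a-/-, at 21.3 CPM (8.56 to 43.9) and 5.21 CPM (1.69 to 12.2). The median depths were 8878 and 7168 UMIs.

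**Figure D5:**
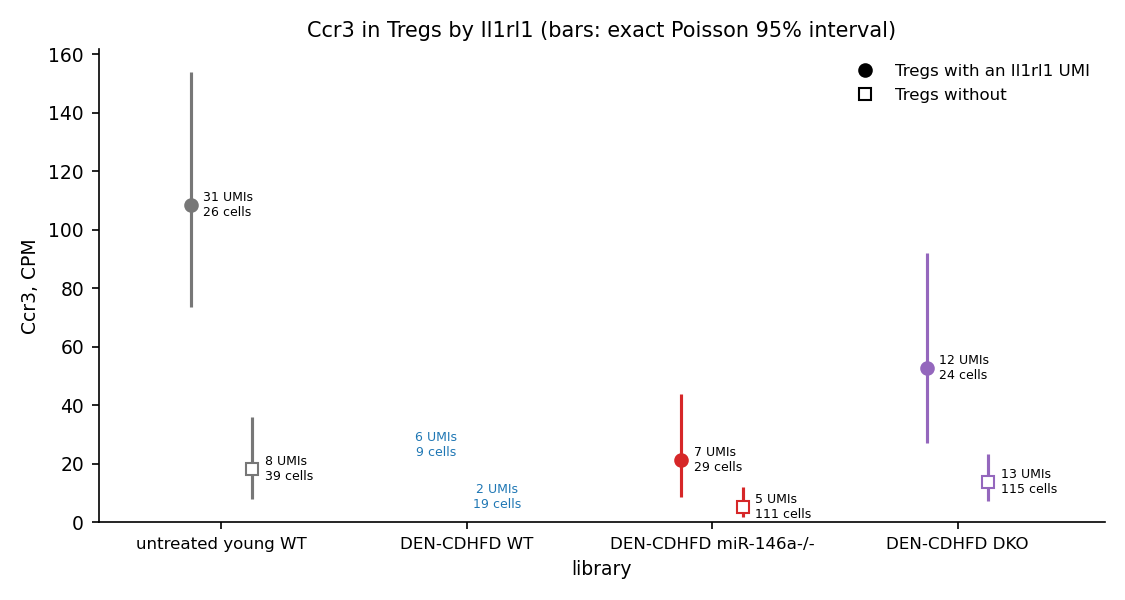
Ccr3 level in CPM in Tregs with an Il1rl1 UMI (filled circles) and without one (open squares) in each library, with exact Poisson 95% intervals as bars and UMIs and cells written beside each point, and alone where there were fewer than 20 cells. Filled circles go from 21.3 CPM in miR-146a-/- to 109 CPM in young WT.

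The ligands of the 2 receptors were read over all kept cells. Of the 6 Ccr1 ligands, 5 were at least 1.5-fold higher in treated than in young WT and 0 were lower, with 11.5% of all genes higher and 8.95% lower by that fold. Ccl3 rose from 223 to 393 CPM, Ccl6 from 60.3 to 145 and Ccl9 from 12.2 to 47.7, next to Ccl5 itself and Ccl7, which had 3 and 98 UMIs. Ccl8 had 88 and 97 UMIs. Ccl7 had enough UMIs to be counted in treated WT alone. Without it, Ccl3, Ccl5, Ccl6 and Ccl9 were still higher. Ligands of Ccr1 were thus mostly higher in the treated library over all cells, as was Ccr1. This was not seen within the classes counted for this comparison, which were cDC2, B cells and Tregs. Among Ccr1 ligands with enough UMIs, 0 of 4 were higher and 2 lower in cDC2 (7.66% and 8.06% of all genes). In B cells 0 of 2 were past the fold (6.48% higher and 4.07% lower), and in Tregs 2 of 2 were lower (14.3%). Of the 6, 0 passed 1.5-fold in either direction between miR-146a-/- and treated WT over all cells, where 8.97% of all genes were higher and 9.02% lower. Within classes, Ccr1 ligands were lower in miR-146a-/- for 2 of 4 in cDC2 (8.65% of all genes) and 2 of 2 in B cells (10.4%). In classical monocytes 3 of 5 were lower (12.7%) and 1 was higher (17.1%). The higher one was Ccl7, with 37 UMIs in miR-146a-/- and 0 in treated WT. It had enough UMIs to be counted in miR-146a-/- alone. In DKO against miR-146a-/-, 3 of 6 were lower and 0 higher, where 5.05% of all genes were lower and 5.16% higher. These were Ccl5, deleted in DKO, Ccl3 (307 against 186 CPM) and Ccl8 (77 against 17 UMIs). Ccl8 had enough UMIs to be counted in miR-146a-/- alone.

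The Ccr3 ligand Ccl11 (eotaxin) had 1 UMI in all and was not ranked. Ccl24, another eotaxin, had 212, 293, 404 and 180 UMIs. Of the 4 Ccr3 ligands with enough UMIs, 2 were higher in treated than in young WT (Ccl5 and Ccl7), 0 differed by 1.5-fold between miR-146a-/- and treated WT, and 3 were lower in DKO than in miR-146a-/- (Ccl5, Ccl8 and Ccl24). Of all genes, 11.5%, 8.97% and 5.16% were higher in these comparisons and 8.95%, 9.02% and 5.05% lower. Ccl7 was counted through treated WT alone, with 3 UMIs in young WT. Ccl8 was counted in the last comparison through miR-146a-/- alone, with 17 UMIs in DKO. Of the eotaxins, Ccl11 was thus scarce in these CD45+ cells, while Ccl24 had more UMIs than Ccr3 in each library.

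Where Ccr1 was read, its ligands were read too. In classical monocytes Ccl9 stood at 374 CPM in treated WT, 349 in miR-146a-/- and 218 in DKO, and Ccl6 at 1263, 660 and 325. Both thus had their lowest values of the 3 treated libraries in DKO, where Ccr1 was the highest of the 3. Of the Ccr1 ligands with enough UMIs in these cells, Ccl5 is deleted in DKO. Among the rest, Ccl3, Ccl6, Ccl7 and Ccl9 were each at least 1.5-fold lower in DKO than in miR-146a-/-, against 8.19% of all genes. Ccl7 had 37 UMIs in miR-146a-/- and 3 in DKO, and had enough to be counted in miR-146a-/- alone. In cDC2 Ccl6 stood at 428, 226, 116 and 105 CPM and Ccl9 at 102, 106, 106 and 95.1 CPM from young WT to DKO. NK cells had no Ccr1 UMI and held the ligand Ccl3 at 1753, 1227, 906 and 622 CPM.

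Genes that act below such receptors, 27 G-protein subunits, kinases, arrestins and RGS proteins, were read over all kept cells. Treated over young WT gave 1 higher and 0 lower by 1.5-fold (Grk3), where 11.5% of all genes were higher and 8.95% lower. The ratio of miR-146a-/- to treated WT gave 1 higher (Grk3) and 2 lower (Rgs1 and Rgs2), where 8.97% were higher and 9.02% lower. DKO over miR-146a-/- gave 0 in either direction, where 5.16% were higher and 5.05% lower. The list's median log2 ratios were 0.01, 0.12 and 0.00, beside -0.03, -0.01 and -0.04 for all genes. Rgs1, which shortens G-protein signals, stood at 749, 1094, 474 and 551 CPM. It was highest in treated WT and lowest in miR-146a-/-. In cDC2, where Ccr1 was lower in miR-146a-/-, Rgs1 was at 364 CPM in treated WT and 177 in miR-146a-/-. In classical monocytes, where Ccr1 was higher, Rgs1 was at 524 and 54.8 CPM, and in B cells at 189 and 58.1. Rgs1 thus went down in each of these classes while Ccr1 went both ways.

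Other chemokine receptors served as a comparison, as 17 of the 20 listed genes had enough UMIs over all kept cells. Treated over young WT gave 2 higher and 5 lower (11.5% and 8.95% of all genes), miR-146a-/- over treated WT 2 higher and 5 lower (8.97% and 9.02%), and DKO over miR-146a-/- 1 higher and 2 lower (5.16% and 5.05%). Ccr1, whose summed UMIs were under 1.5-fold in each, was not among the genes past the fold. Of its neighbours on the chromosome, Ccr2 stood at 149, 144, 180 and 171 CPM over all kept cells, Xcr1 at 26.7, 10.8, 12.8 and 10.9, and Cxcr6 at 330, 256, 185 and 154. Their libraries were ordered otherwise than those of Ccr1 or Ccr3. In classical monocytes, Ccr2 stood at 452, 756 and 617 CPM in treated WT, miR-146a-/- and DKO, and both Ccr2 and Ccr1 were lowest in treated WT there. Ccr2 is itself a marker of that gate, so its level in the class depends on the gate and is no separate comparison for Ccr1. In Tregs Ccr4 stood at 84.1, 60.8, 64.4 and 90.7 CPM and Ccr8 at 49.6, 196, 232 and 234 CPM, neither of which had the order of Ccr3.

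Likeness to each receptor was measured as Pearson's r of log2(CPM + 1) over 46 pools of a class in a library with at least 50 cells, among 12455 genes. It is a description only, since pools share libraries and many have few UMIs of the receptor. For Ccr1 the 10 most alike were Gm14548 (0.826), Mpc1, Cd33 (0.806), Mboat7, Atrnl1, Cfp, Fam111a, Atp6v0a1, Ckap4 and Ifi30 (0.765). No pool of neutrophils reached 50 cells, so the class highest in Ccr1 had no part in this list. With pools of at least 20 cells 2 of the 10 were shared (Cd33 and Ckap4), and with at least 200 cells 1 was (Ckap4). For Ccr3 they were Lclat1 (0.841), Ikzf4, Rragd, Ncmap, Actg2, Apol9b, Asxl1, Il1rl1 (0.794), Gm29114 and Gm3468 (0.785). With pools of at least 20 cells 6 of these were shared and with at least 200 cells 0 were. Both lists thus changed with the pools.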

How the data were processed

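The authors aligned the reads to mm10 with Cell Ranger, version 7.0.1 per the file headers, while the methods text names an earlier version, and what they deposited is a matrix for each library of untransformed UMIs, in the unit count. The sources used do not say if reads in introns entered the counts. The filter on cells asked for 600 to 6000 detected features and no more than 5% of UMIs from mitochondrial genes. Kept cells had medians of 6782, 8210, 7910 and 7558 UMIs in young WT, treated WT, miR-146a-/- and DKO. Gates on raw UMIs of marker genes defined 18 classes. Cells that passed several gates were counted apart, and no doublet caller was run beyond that and the upper feature limit. Levels are summed UMIs of a class scaled to CPM, with exact Poisson intervals, and are given as UMIs alone below 20 cells. Shares have exact Clopper-Pearson intervals and ratios exact conditional binomial intervals, with a prior of 0.5 counts. Thinning used 2000 UMIs and left out shallower cells, 667, 540, 358 and 406 by library. Background genes had at least 20 UMIs in 1 of the libraries compared. Named genes were Ccr1, Ccr3, the fixed lists of ligands, signalling genes, receptors, neighbours and stage markers. To these came the 10 genes most like each receptor and the 10 leading genes of Ccr3-positive cells. Further genes were added after the data were seen, among them those compared in Ccr1-positive B cells and the 10 leading genes of Ccr1-positive cells. Members and lists were chosen with earlier results of these data known. B cells had been planned as the class without Ccr1, and NK cells and ILC1 were used in addition once B cells were seen to hold it. Alternatives changed the feature, mitochondrial and Cd3 limits, cells of several gates, scaling, prior, thinning and pool size. Recovery of changed genes, coverage of the intervals and the mean after thinning were tested on simulated counts. Those counts were independent, which UMIs of a cell are not, and gates, weighting and likeness were not simulated. Python 3.11.15 with numpy 2.4.6, scipy 1.17.1, pandas 2.3.3 and matplotlib 3.10.9 was used, and R 4.3.3 with edgeR 4.0.16 for TMM factors.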

Additional observations from a re-analysis of the deposited data

Results flagged for a closer look

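The Ccr1 difference between miR-146a-/- and treated WT had opposite signs in different classes, and in each of these classes its counting interval did not include 0. The log2 ratio was -2.06 in cDC1, -1.26 in cDC2, -2.51 in patrolling monocytes and -0.75 in B cells, all lower in miR-146a-/-, and 1.12 in classical monocytes, higher in miR-146a-/-. The cDC1 value rests on 13 UMIs in treated WT and 3 in miR-146a-/-, and that of patrolling monocytes on 6 and 4. Shares of Ccr1-positive cells in treated WT and miR-146a-/- differed in the same directions, at 28.6% and 13.6% in cDC2, 13.8% and 27.7% in classical monocytes and 5.23% and 3.50% in B cells, with intervals that overlapped in each. The difference between the classes was not tested, since each group is 1 library.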

How the results depend on the processing

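Of 187 log2 ratios recomputed under alternatives for Ccr1 and Ccr3, 182 kept their sign and 0 of those whose interval had left out 0 changed it. Of the main values, those that lay outside of the counting interval first found are given here, and the cause was not tested. The values of single libraries behind these, of which 66 lay outside, are not listed. Without an upper feature limit, the pooled Ccr1 UMI shares were 6.77% for neutrophils, 5.55% for B cells, 28.7% for several gates and 41.2% for no gate. With 0 Cd3 UMIs allowed, they were 5.59% for B cells, 29.1% for several gates and 39.1% for no gate. With no Cd3 limit, classical monocytes were at 38.1 CPM, and the shares were 12.6% for them, 9.81% for cDC2, 8.12% for B cells, 45.4% for several gates and 9.48% for no gate. The Ccr3 UMIs were then 63 in several gates and 47 in no gate. With cells of several gates kept in the first, Ccr1 was at 111 CPM in neutrophils, 27.2 in cDC2 and 8.69 in patrolling monocytes, the shares were 18.3% and 10.0% for neutrophils and cDC2, and 0 UMIs of either receptor were left in several gates. A mean over cells gave Ccr1 ratios over all cells of 0.73 (treated over young WT) and -0.24 (miR-146a-/- over treated WT), and 0.79 for Ccr3 in the former. Without thinning, a Ccr1 UMI was in 73.3% of neutrophils, 26.9% of classical monocytes, 25.3% of cDC2, 3.06% of B cells and 0.197% of ILC1. At 1000 UMIs the shares were 4.36%, 3.33% and 0.294% of classical monocytes, cDC2 and B cells. Of the 10 genes most like Ccr1, 2 and 1 were shared with pools of at least 20 and 200 cells, and of those most like Ccr3, 6 and 0.

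Some settings were chosen after seeing the data. These were all those for the Ccr3 ratios and the Ccr3 likeness, leaving out cells with S100a8 and S100a9, counting each positive cell 1 time, leaving out the cell with the most Ccr3 UMIs, at least 2 Foxp3 UMIs for Tregs, the mean over all draws of 2000 UMIs for both receptors, and the weighting with ungated cells as 1 category. With each positive cell counted 1 time, the Ccr1 ratios were 0.96 and -0.10 over all cells for the same pairs as above, and 0.14 in classical monocytes for DKO over miR-146a-/-.

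No paired analysis was possible because each group has 1 library, and a shared replicate number of 1 names no pair. Differences between mice, between sorts and between sequencing runs cannot be told apart from group differences. Eosinophils, basophils, neutrophils and C1q macrophages had few cells in each library, and a Ccr3 UMI was found in 211 cells in all. Intervals treat UMIs as independent, while UMIs of a cell are not. Surface protein was not measured.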
